A study of Mus musculus with 16 samples.

Results

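Ribosome biogenesis was followed through 50 genes, taken out of 16475 genes measured on the arrays. They were chosen by name: 10 genes of nucleolar factors (Bop1, Pes1, Wdr12, Fbl, Ncl, Dkc1, Nolc1, Gnl3, Ddx21 and Rrs1), every gene whose symbol begins with Utp, Nop or Rrp and a digit, the Polr1 subunits a to f of RNA polymerase I, and every numbered Exosc subunit of the RNA exosome. The rule used names and no measured value, but it was set with earlier results of these data known. By role the 50 genes comprised 5 RNA polymerase I subunits, 11 proteins of the small-subunit processome, 1 box C/D and 2 box H/ACA snoRNP proteins, 5 nucleolar GTPase, helicase, chaperone and assembly factors, 3 members of the PeBoW complex, 5 other NOP proteins, 8 RRP proteins and 10 exosome subunits. Fbl and Nop56, which also answer to these names, were not analysed here.

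A ribosome begins in the nucleolus, where RNA polymerase I transcribes the long precursor of the ribosomal RNAs. Small nucleolar ribonucleoproteins (snoRNPs) methylate or pseudouridylate this precursor, the small-subunit processome folds and cleaves its first part, the PeBoW complex and many helicases, GTPases and assembly factors mature the large subunit, and the RNA exosome trims and degrades the leftover pieces from their 3′ ends. The pathway is a large share of the work of a growing cell. Resting T cells are small and make few ribosomes, and stimulation through the antigen receptor is known to switch the pathway on before the first division, with the transcription factor Myc among its activators.

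CD4+ T cells of C57BL/6 Foxp3-GFP knock-in reporter mice, females of 6 to 12 weeks by the methods, were sorted from pooled lymph node and spleen cells on CD4 and GFP into TFoxp3+ cells (regulatory T cells) and TFoxp3− cells. All groups carried the reporter. Each subset was measured ex vivo, without culture, or activated in vitro for 36 h with anti-CD3 and anti-CD28 fixed to the plate (5 µg/ml) and human IL-2 (100 U/ml), and from each, cytosolic mRNA and polysome-associated mRNA (at least 3 ribosomes on the mRNA) were hybridised to Affymetrix arrays, 2 arrays for each of the 8 groups. Cycloheximide (100 µg/ml) was in all buffers for ex vivo cells and entered the cultures at their end. Duplicates are biological by the methods, and each ex vivo sample pooled RNA of 2 experiments. Values are log2 intensities summarised by RMA, so a difference of 1 is a doubling, and levels of different genes cannot be compared with each other. The arrays are numbered 1 to 16 by the labels and fall into 3 series by their scan names: ex vivo cells (arrays 1 to 8), activated TFoxp3− cells (9 to 12) and activated TFoxp3+ cells (13 to 16). Activation therefore cannot be told apart from array series, nor can subset in activated cells, whereas ex vivo comparisons of the subsets and all comparisons of polysome-associated with cytosolic mRNA lie within a series. Differences were tested with limma over all 16 arrays with Benjamini-Hochberg adjustment over all genes, and a gene is called when its adjusted p is under 0.05, or under 0.15 for comparisons of the subsets.

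The whole data set carried marks that bear on these values. Foxp3 mRNA had group means of 10.09 to 10.53 in TFoxp3+ and 3.75 to 6.05 in TFoxp3− cells, and all 4 measured CD4 T cell markers lay above the array median in every group. Replicates correlated across genes at r = 0.980 to 0.992 ex vivo, 0.941 and 0.945 in activated TFoxp3− cells, and 0.888 and 0.887 in activated TFoxp3+ cells. For actin, control probe sets at both ends of the mRNA differed (3′ end minus 5′ end, a sign of RNA or amplification quality) by 4.16 to 4.64 in ex vivo TFoxp3+ arrays, 0.82 to 1.38 in ex vivo TFoxp3− arrays, and −0.59 to −0.20 in activated arrays. For Gapdh the same difference was 3.51 to 4.12, 2.26 to 3.37 and 1.04 to 1.32 in that order. The control probe set for the 3′ end of 18S ribosomal RNA read 10.48 to 13.09 ex vivo and 14.45 to 14.64 after activation. The set for its middle read 12.24 to 13.17 and 14.22 to 14.45. At the 5′ end the readings were 12.76 to 13.84 and 13.77 to 14.14, which overlap. Among markers of other cells, the summed level of the 4 stromal and endothelial markers was 18.14 to 21.67 in activated TFoxp3+ arrays and 15.47 to 18.18 elsewhere. Of these markers Pecam1 alone had a group mean above the array median. The 3 measured of 5 B cell markers summed to 15.66 to 17.14 ex vivo and 10.64 to 15.63 after activation without overlap, with group means of Cd79b at 8.05 to 8.99 and 3.85 to 6.36, while Ms4a1 and Pax5 lay between 2.97 and 4.94 in all groups. The 5 myeloid markers summed to 21.71 to 23.77 ex vivo, 18.17 to 21.13 in activated TFoxp3− and 20.91 to 23.66 in activated TFoxp3+ arrays, and Lyz2 had means of 5.05 and 5.66 in activated TFoxp3− and 6.55 and 7.60 in activated TFoxp3+ cells (cytosolic first). The 2 natural killer cell markers summed to 7.02 to 8.15 in activated TFoxp3− and 8.25 to 8.37 in activated TFoxp3+ arrays. The part of these differences in the activation and subset results was not tested.

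The stretches of 250 bases before the transcription start, which hold the core promoter, were available for 41 of the 50 genes (RefSeq, mouse build GRCm38.p6). They were searched on both strands for CACGTG, the canonical E-box bound by Myc and related factors, and CCGGAAG, the core bound by ETS factors; no match of one overlapped a match of the other. E-boxes were found for 6 of the 41 genes (14.6%), against 8.99% of the 12585 genes of the arrays that have such a stretch, and ETS cores for 8 of 41 (19.5% against 12.1%). Below are promoters of 3 genes that rose in both subsets and both RNA fractions with activation (Nop58, Ncl and Nolc1), and of Nop2 and Utp18, the only members that hold both motifs and which return below for their translation. Motifs are in capitals, each sequence reads 5′ to 3′ and ends at the base before the start.
Nop58: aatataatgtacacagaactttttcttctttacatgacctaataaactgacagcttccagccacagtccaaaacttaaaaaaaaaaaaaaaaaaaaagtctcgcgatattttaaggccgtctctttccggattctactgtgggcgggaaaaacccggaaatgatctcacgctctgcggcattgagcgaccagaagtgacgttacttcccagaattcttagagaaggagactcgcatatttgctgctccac
Ncl: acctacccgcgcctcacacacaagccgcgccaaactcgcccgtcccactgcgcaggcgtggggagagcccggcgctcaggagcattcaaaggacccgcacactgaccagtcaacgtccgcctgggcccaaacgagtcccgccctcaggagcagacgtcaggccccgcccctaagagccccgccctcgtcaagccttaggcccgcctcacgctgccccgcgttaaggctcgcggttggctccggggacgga
Nolc1: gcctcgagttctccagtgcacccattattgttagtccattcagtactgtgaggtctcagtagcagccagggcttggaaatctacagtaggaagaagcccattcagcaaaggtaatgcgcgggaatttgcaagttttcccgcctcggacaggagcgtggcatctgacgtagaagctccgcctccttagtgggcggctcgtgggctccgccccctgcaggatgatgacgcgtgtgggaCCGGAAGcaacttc
Nop2: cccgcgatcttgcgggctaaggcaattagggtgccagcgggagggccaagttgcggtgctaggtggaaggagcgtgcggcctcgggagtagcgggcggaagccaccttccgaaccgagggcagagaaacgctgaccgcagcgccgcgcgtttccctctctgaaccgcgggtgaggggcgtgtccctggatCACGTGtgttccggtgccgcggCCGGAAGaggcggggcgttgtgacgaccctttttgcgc
Utp18: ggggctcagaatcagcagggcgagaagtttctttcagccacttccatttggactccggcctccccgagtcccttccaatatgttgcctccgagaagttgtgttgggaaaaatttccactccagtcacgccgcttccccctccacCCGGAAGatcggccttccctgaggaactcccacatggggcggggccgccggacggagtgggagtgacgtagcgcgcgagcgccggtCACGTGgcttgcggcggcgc
In the genome these lie at chr1:59684756-59685005 (plus strand), chr1:86359456-86359705 (minus strand), chr19:46075597-46075846 (plus strand), chr6:125131633-125131882 (plus strand) and chr11:93885767-93886016 (minus strand). Nolc1 holds an ETS core that begins 14 bases before its start, Nop2 an E-box at 60 and an ETS core at 38 bases, and Utp18 an ETS core at 106 and an E-box at 20 bases. Nop58 and Ncl hold neither. A match is a run of letters and does not show that a factor binds.

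The median level over the 50 genes was 7.20 to 7.49 on the 4 ex vivo TFoxp3− arrays and 6.53 to 6.80 on the 4 ex vivo TFoxp3+ arrays. After activation it was 8.89 to 9.13 in TFoxp3− and 7.59 to 8.20 in TFoxp3+ arrays, with no overlap between any of these 4 sets of arrays. The medians of all genes spanned 4.845 to 5.065. Ex vivo 0 to 4 of the 50 genes a group were over 2-fold apart between replicates (all genes 0.995% to 3.88%). In activated TFoxp3− cells 8 genes (cytosolic) and 3 genes (polysome-associated) were that far apart, and in activated TFoxp3+ cells 20 and 17, so single values there carry the widest error. Among all genes these shares were 15.47% and 14.05% in activated TFoxp3− and 20.58% and 21.81% in activated TFoxp3+ cells.

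**Figure D1:**
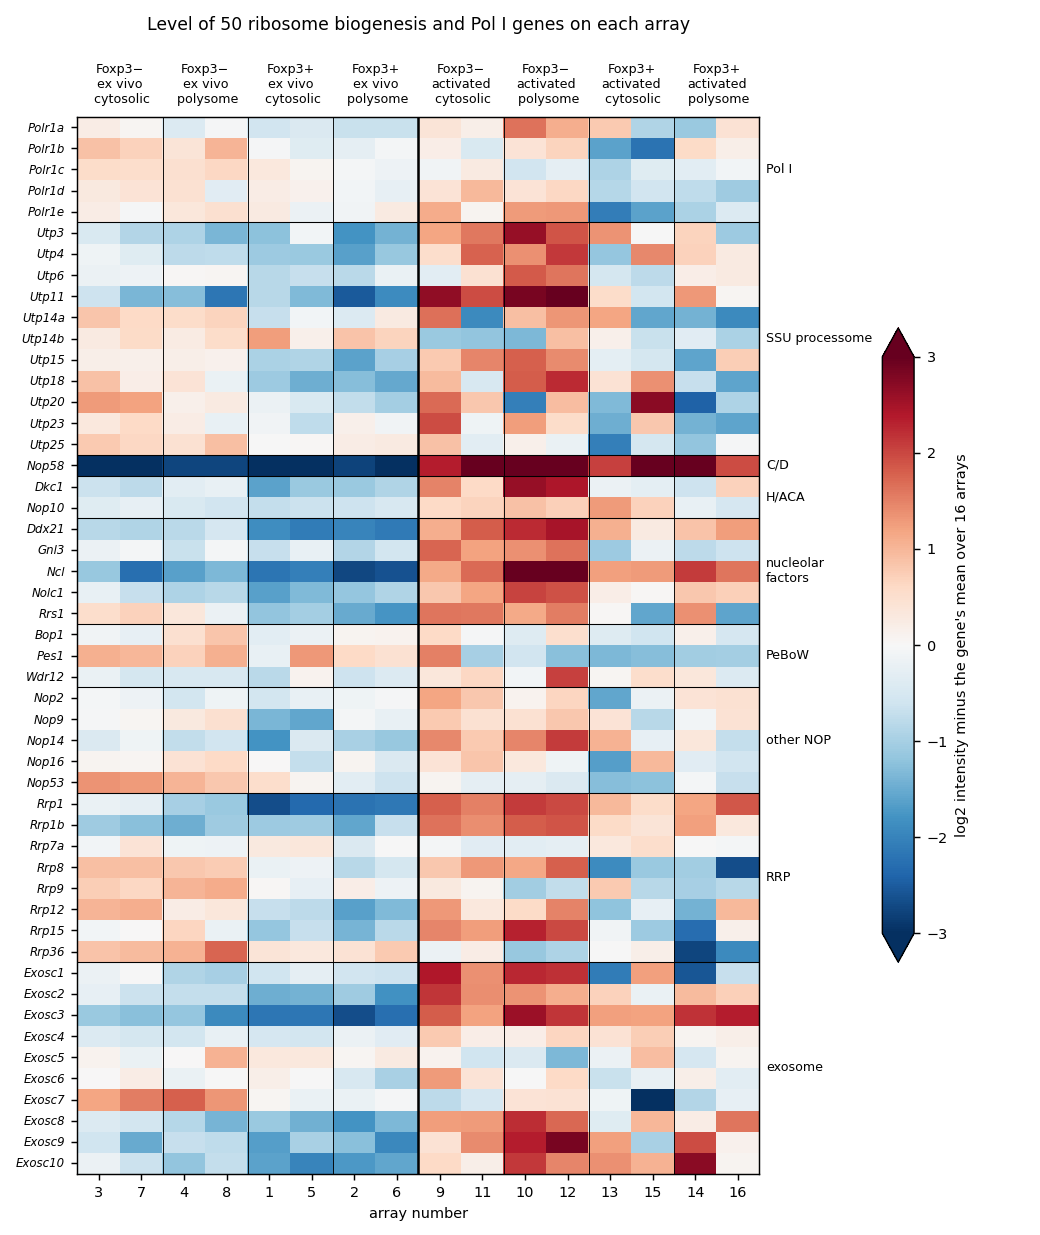
Level of each of the 50 genes (rows, ordered by role) on each of the 16 arrays (columns, 2 per group), as log2 intensity minus the gene's mean over the 16 arrays, with the colour scale ending at 3 in either direction. Activated TFoxp3− arrays hold the most red, and Nop58, Ncl and Exosc3 change colour between the states in both subsets, while rows such as Pes1, Nop53 and Polr1c do not follow that pattern.

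Many of the genes were higher after activation in both subsets, a difference that cannot be told apart from array series. In TFoxp3− cells 15 genes rose and 1 fell in cytosolic mRNA and 24 rose and 5 fell in polysome-associated mRNA, against 13.6% and 12.5% of all genes rising and falling in the cytosolic comparison (26.1% in either direction) and 14.1% and 16.4% in the polysome-associated one (30.6%). In TFoxp3+ cells 16 rose and 6 fell in cytosolic mRNA (all genes 16.9% and 14.4%, together 31.4%), and 12 rose and 1 fell in polysome-associated mRNA (14.7% and 14.6%, together 29.3%). The median activated minus ex vivo difference over the 50 genes was 0.76 and 1.28 in TFoxp3− cells (cytosolic first) and 0.33 and 0.35 in TFoxp3+ cells, beside 0.02 to 0.13 over all genes. Cyclic loess scaling gave 0.94 and 1.60 in TFoxp3− and 0.71 and 0.69 in TFoxp3+ cells, so the TFoxp3+ medians depended on the scaling. Over the 8237 genes whose mean level was above the median, a range that holds 49 of the 50, the medians were −0.25 to −0.13. Less RNA per cell and fewer cells of a type cannot be told apart in such bulk samples. In all 4 comparisons 9 genes rose (all genes 4.5%), and the fractions of a subset come from the same cells: Nop58, Ncl, Nolc1, Ddx21, Exosc2, Exosc3, Exosc8, Rrp1 and Rrp1b. Of these 9, 1 holds an ETS core in its promoter stretch (Nolc1) and 0 an E-box. In 16 genes no activation comparison was called (all genes 45.4%).

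Nop58, a core protein of the box C/D snoRNPs that guide ribose methylation, had the largest rise of all members. Its cytosolic level was 3.59 and 3.58 in ex vivo and 8.93 and 9.65 in activated TFoxp3− cells, and 2.89 and 3.31 in ex vivo and 8.64 and 9.78 in activated TFoxp3+ cells. In polysomes it went from 3.82 and 3.83 to 10.68 and 11.13 in TFoxp3− cells and from 3.81 and 3.53 to 9.62 and 8.55 in TFoxp3+ cells. Every activated array was thus far above every ex vivo array. The log2 differences were 5.71 and 7.08 in TFoxp3− cells (cytosolic first) and 6.12 and 5.42 in TFoxp3+ cells, each with a standard error of 0.43, and the adjusted p from limma was 1.9e-06 to 1.74e-05. Since all its ex vivo levels lay below 4.845, the lowest median of any array, the fold changes are uncertain in size. The box H/ACA proteins rose less. Dkc1, the pseudouridine synthase dyskerin, rose by 1.74 and 2.78 in TFoxp3− cells and by 1.13 in cytosolic mRNA of TFoxp3+ cells (adjusted p = 0.0495 from limma, a call lost in 7 of 9 alternatives), and its polysome-associated difference in TFoxp3+ cells, 1.05, was not called. Its partner Nop10 rose in the same 3 comparisons, by 0.94, 1.31 and 1.66, and differed by 0.18 in polysomes of TFoxp3+ cells.

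**Figure D2:**
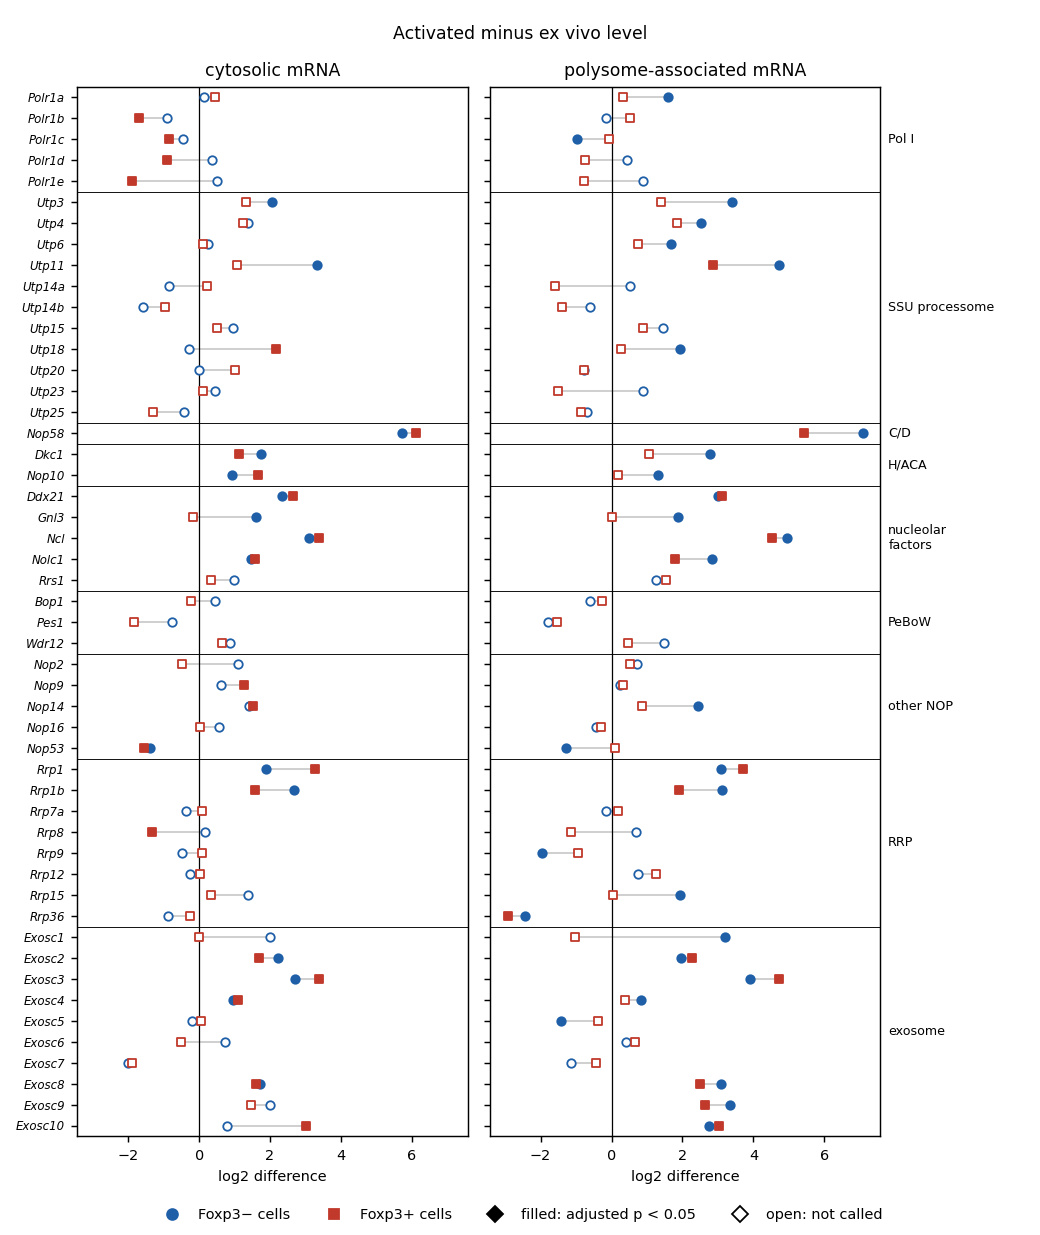
Activated minus ex vivo log2 difference of the 50 genes in cytosolic (left) and polysome-associated mRNA (right), with circles for TFoxp3− and squares for TFoxp3+ cells and filled symbols for an adjusted p under 0.05. Nop58, Ncl and Exosc3 lie far to the right in both subsets, and Polr1b, Polr1c, Polr1d and Polr1e are filled to the left of 0 in cytosolic mRNA of TFoxp3+ cells.

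Among the nucleolar factors, 4 of 5 rose in each fraction of TFoxp3− cells and 3 of 5 in each fraction of TFoxp3+ cells. Ncl encodes nucleolin, an abundant RNA-binding protein of the nucleolus. Its cytosolic level was 7.16 and 6.02 ex vivo and 9.43 and 9.99 after activation in TFoxp3− cells, and 6.09 and 6.24 against 9.51 and 9.56 in TFoxp3+ cells. Polysome-associated Ncl was at 6.66 and 6.93 ex vivo and 11.58 and 11.91 after activation in TFoxp3− cells, and at 5.55 and 5.67 against 10.38 and 9.90 in TFoxp3+ cells. The states did not overlap in any group, with differences of 3.11 and 4.95 in TFoxp3− and 3.37 and 4.53 in TFoxp3+ cells (standard error 0.35, adjusted p from limma 4.27e-06 to 0.000122). Ddx21, a nucleolar RNA helicase, rose by 2.33 to 3.11 and Nolc1, a chaperone of snoRNPs that also binds RNA polymerase I, by 1.45 to 2.84 over the 4 comparisons. Cytosolic Nolc1 of ex vivo TFoxp3+ cells was at 4.61 and 4.91, below the array medians of 4.98 and 4.95, so the size of that rise is uncertain. Gnl3, the GTPase nucleostemin, rose in both fractions of TFoxp3− cells, by 1.60 and 1.87 (adjusted p = 0.00617 and 0.00182 from limma), and in TFoxp3+ cells it differed by −0.17 and 0.02, not called. The subsets differed in this response by −1.77 (cytosolic) and −1.85 (polysome-associated), which was not called at 0.05 (adjusted p = 0.0739 from limma in polysomes). Rrs1, an assembly factor of the large subunit, was not called in any activation comparison, at 0.34 to 1.54.

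The PeBoW complex, which large-subunit assembly needs and which is formed by Pes1, Bop1 and Wdr12, had 0 of 3 genes called in each activation comparison, with 0, 2, 1 and 1 at an unadjusted p under 0.05 in limma (TFoxp3− cells first, cytosolic first). Bop1 had cytosolic levels of 9.83 and 9.69 ex vivo and 10.53 and 9.90 after activation in TFoxp3− cells, and 9.61 and 9.74 against 9.55 and 9.34 in TFoxp3+ cells. The activated arrays were the higher pair in TFoxp3− and the lower pair in TFoxp3+ cells, and all lay between 9.34 and 10.53. Pes1 had differences of −1.84 to −0.77 and Wdr12 of 0.47 to 1.48 over the 4 comparisons. Some levels of both lay below the array median. Pes1 was at 4.18 and 4.25 in cytosolic mRNA of activated TFoxp3+ cells, where both array medians were 5.06. The cytosolic Pes1 replicates of activated TFoxp3− cells were at 7.04 and 4.53, and those of ex vivo TFoxp3+ cells at 5.30 and 6.81, so its standard error was 0.67. Over all 18 comparisons made here 7 of the 50 genes were never called (all genes 31.4%): Bop1, Pes1, Wdr12, Exosc7, Nop16, Utp14b and Utp20.

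Among RNA polymerase I subunits 1 of 5 rose in any activation comparison. In cytosolic mRNA of TFoxp3− cells 0 of 5 were called, with differences of −0.92 to 0.50 and 1 of 5 at an unadjusted p under 0.05. In polysomes Polr1a, the largest and catalytic subunit, rose by 1.58 (standard error 0.54, adjusted p = 0.0468 from limma), and Polr1c, which RNA polymerase III also uses, fell by 0.97 (adjusted p = 0.01). In cytosolic mRNA of TFoxp3+ cells 4 of 5 fell, and 2 of 5 with cyclic loess. Polr1e, which encodes a subunit that acts when the enzyme initiates, was at 8.09 and 7.64 ex vivo and 5.76 and 6.22 after activation there, and Polr1b, the other large catalytic subunit, at 7.54 and 7.21 against 5.98 and 5.37. Neither gene overlapped between the states. Polr1e fell by 1.88 (standard error 0.34, adjusted p = 0.00227 from limma) and Polr1b by 1.7 (standard error 0.32, adjusted p = 0.00248), and both calls held in all 9 alternatives. Polr1c (−0.84) and Polr1d (−0.90), both shared with RNA polymerase III, lost the call in 5 and 7 of 9 alternatives, and with cyclic loess their differences were −0.25 and −0.29. In polysomes of TFoxp3+ cells 0 of 5 were called and 2 of 5 had an unadjusted p under 0.05 in limma.

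Of the 11 small-subunit processome genes 2 and 5 rose in TFoxp3− cells (cytosolic first) and 1 and 1 in TFoxp3+ cells, and 0 fell. Of all genes 13.6% and 14.1% rose in TFoxp3− and 16.9% and 14.7% in TFoxp3+ cells, and 12.5% to 16.4% fell. Only the count of 5 in TFoxp3− polysomes lay well above the share of all genes rising. Utp11 was at 7.26 and 6.49 in ex vivo and 10.54 and 9.83 in activated TFoxp3− cytosolic mRNA, a rise of 3.31 (standard error 0.52, adjusted p = 0.00104 from limma), and rose by 4.72 in polysomes. In TFoxp3+ cells Utp11 rose by 2.87 in polysomes, and its cytosolic difference of 1.08 was not called. Utp3 rose by 2.05 and 3.39 in TFoxp3− cells, and Utp4 (2.51), Utp6 (1.68) and Utp18 (1.93) in polysomes only. Utp18 was also the one processome gene that rose in cytosolic mRNA of TFoxp3+ cells, by 2.17 (adjusted p = 0.00868 from limma). Its ex vivo levels there were 5.15 and 4.77, near the array medians of 4.98 and 4.95, so the size of this rise is uncertain. Utp14a and its retrogene copy Utp14b were not called with activation, and since their sequences are alike, probes could respond to either.

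Exosome subunits were among the genes that rose in each group: 4 and 7 of 10 in TFoxp3− cells (cytosolic first) and 5 and 5 of 10 in TFoxp3+ cells. Exosc3, a cap subunit that binds RNA, was at 6.78 and 6.65 in ex vivo and 9.71 and 9.11 in activated TFoxp3− cytosolic mRNA, and at 5.73 and 5.74 against 9.14 and 9.10 in TFoxp3+ cells. In polysomes it went from 6.73 and 5.99 to 10.47 and 10.05 in TFoxp3− cells and from 5.25 and 5.63 to 10.08 and 10.25 in TFoxp3+ cells. The rise was 2.69 to 4.73 (standard error 0.29, adjusted p from limma 3.94e-06 to 0.000102), and no array of one state reached those of the other. Exosc2, another cap subunit, rose by 1.68 to 2.28 and Exosc8, a subunit of the ring, by 1.60 to 3.09. Exosc10, a catalytic 3′ to 5′ exonuclease of the nuclear exosome, had polysome replicates far apart in activated TFoxp3+ cells, at 10.37 and 7.75. It rose by 3.0 and 3.04 in TFoxp3+ cells and by 2.75 in polysomes of TFoxp3− cells. Exosc5, a ring subunit, went the other way in polysomes of TFoxp3− cells, with a fall of 1.42 (adjusted p = 0.0377 from limma). Exosc7, also of the ring, had differences of −2.01 and −1.13 in TFoxp3− cells and −1.89 and −0.44 in TFoxp3+ cells, none of them called.

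The NOP and RRP proteins were mixed. Rrp1 and Rrp1b, paralogs of large-subunit assembly, rose in all 4 comparisons, by 1.89 to 3.70 and 1.58 to 3.12. Nop53, which brings the exosome to the pre-ribosome, fell in 3 of 4: it was at 12.85 and 12.77 ex vivo and 11.59 and 11.24 after activation in TFoxp3− cytosolic mRNA, a fall of 1.39 (standard error 0.26, adjusted p = 0.00285 from limma), fell by 1.28 in polysomes, and fell by 1.55 in cytosolic mRNA of TFoxp3+ cells. Its polysome-associated difference in TFoxp3+ cells was 0.10. Rrp36, an early factor of the small subunit, fell in polysomes of both subsets. It was at 9.52 and 10.23 ex vivo and 7.34 and 7.55 after activation in TFoxp3− polysomes, and at 8.91 and 9.27 against 5.74 and 6.58 in TFoxp3+ polysomes, falls of 2.43 and 2.93 (standard error 0.32, adjusted p = 0.000199 and 0.000104 from limma). In cytosolic mRNA Rrp36 differed by −0.88 and −0.27, not called. Rrp9, a protein of the U3 snoRNP, fell by 1.96 in polysomes of TFoxp3− cells, and Rrp8, a methyltransferase of ribosomal RNA, fell by 1.33 in cytosolic mRNA of TFoxp3+ cells (adjusted p = 0.047 from limma, lost in 5 of 9 alternatives). Nop14, a small-subunit factor, rose in polysomes of TFoxp3− cells (2.43) and in cytosolic mRNA of TFoxp3+ cells (1.52).

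**Figure D3:**
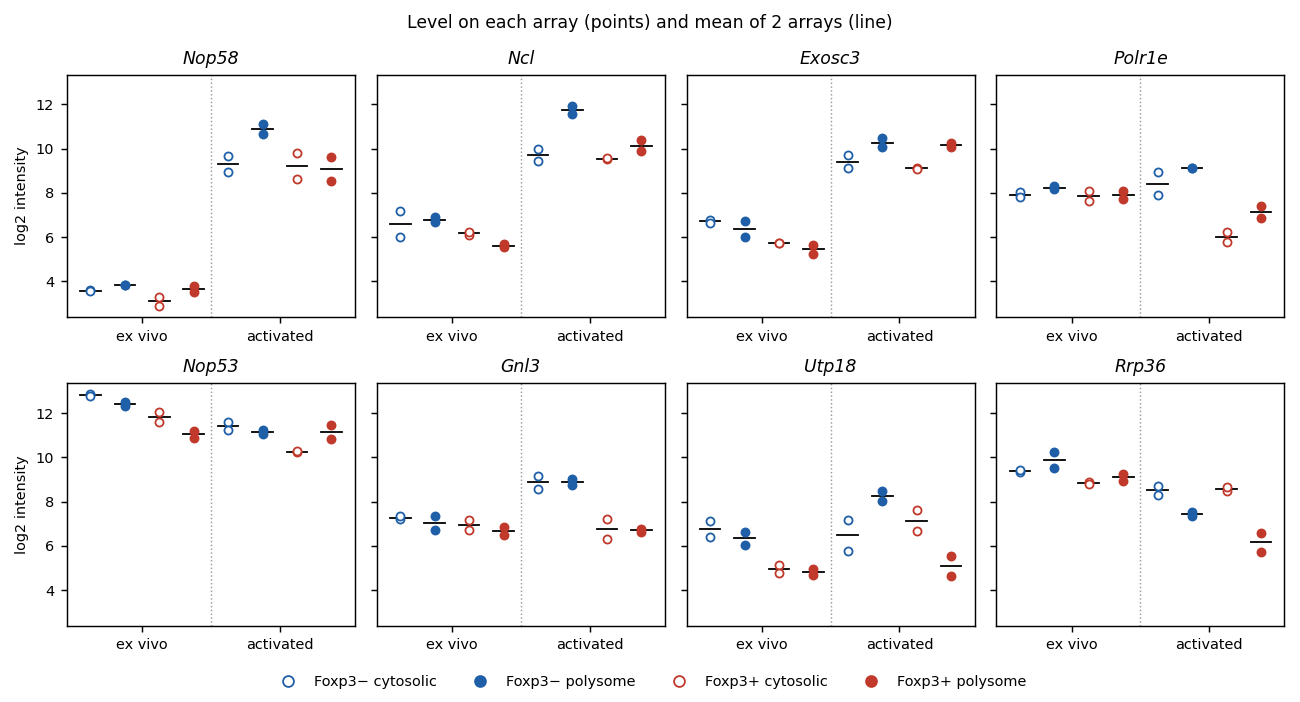
Log2 intensity of 8 genes on each array, with blue for TFoxp3− and red for TFoxp3+ cells, open points for cytosolic and filled points for polysome-associated mRNA, and a line at the mean of the 2 arrays. Nop58, Ncl and Exosc3 rise in all groups with activation, Polr1e and Gnl3 separate the activated subsets, and Utp18 and Rrp36 are lowest in polysomes of activated TFoxp3+ cells relative to their cytosolic mRNA.

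Whether the activation response differed between the subsets was tested as the difference of the 2 responses. In cytosolic mRNA 1 of the 50 genes passed 0.05 (all genes 0.856% higher and 1.21% lower in response, 2.07% in all), Polr1e, whose response in TFoxp3+ cells was lower by 2.38 (standard error 0.48, adjusted p = 0.0337 from limma). Its TFoxp3− cytosolic levels were 8.05 and 7.80 ex vivo and 8.94 and 7.90 after activation, and its difference there, 0.50, was not called. The call of Polr1e was lost without any 1 of 6 arrays, with adjusted p-values of 0.0535 to 0.153. In polysomes 0 of 50 genes passed (all genes 1.15% and 1.43%, 2.58% in all), with 17 at an unadjusted p under 0.05 in limma. The share of all genes at that unadjusted p is not given here, so these 17 are not a result about the members. The 3 with the smallest unadjusted p were Gnl3 (−1.85, adjusted p = 0.0739), Nop53 (1.38, adjusted p = 0.0786) and Nop10 (−1.13, adjusted p = 0.088). The median difference of the responses over the 50 genes was −0.15 for the cytosolic and −0.53 for the polysome-associated fraction, and over all genes 0.03 and 0.10. With cyclic loess the cytosolic median turned to 0.06, with 25 genes above and 25 below 0, and the polysome-associated one was −0.56.

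Ex vivo most of the genes lay lower in TFoxp3+ than in TFoxp3− cells. The TFoxp3+ minus TFoxp3− difference was below 0 for 44 of 50 genes in each fraction, with a median of −0.65 in cytosolic and −0.59 in polysome-associated mRNA (all genes 0.10 and 0.09, genes above the median mean level −0.07 and −0.10). Called at 0.15 were 7 genes in cytosolic mRNA, all lower in TFoxp3+ cells (all genes 2.58% lower and 2.06% higher, 4.64% in all), and 3 in polysome-associated mRNA, all lower (2.25% lower and 1.62% higher, 3.87% in all). Of the genes above the median mean level, 4.37% and 3.53% were lower and 3.1% and 2.45% higher (cytosolic first). In cytosolic mRNA 36 of 50 genes had both TFoxp3+ arrays below both TFoxp3− arrays, against 25.47% of all genes. Rrp1 was at 6.94 and 7.28 in TFoxp3+ and 9.40 and 9.34 in TFoxp3− cytosolic mRNA, which is −2.26 with a standard error of 0.25 (limma, adjusted p = 0.00213), and at 7.39 and 7.47 against 8.60 and 8.50 in polysomes (−1.12, adjusted p = 0.0618). Ddx21 was lower in both fractions too, by 1.11 and 1.39, and so was Nop53, by 1.0 and 1.39. Nop9, an RNA-binding factor of the small subunit (−1.47), Nolc1 (−1.02), Utp18 (−1.81) and Exosc3 (−0.98) were called in cytosolic mRNA. In TFoxp3+ cells Nolc1 was at 4.61 and 4.91 and Utp18 at 5.15 and 4.77, near or below the array medians of 4.98 and 4.95. The sizes of their differences are thus uncertain. No RNA polymerase I subunit was called, although all 5 differences lay below 0 in each fraction.

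These ex vivo counts depended on how the spread was estimated. With only the 8 ex vivo arrays in the fit, an alternative added after the data were seen, 28 genes were lower in TFoxp3+ cells in cytosolic mRNA and 29 in polysome-associated mRNA with 0 higher, while all genes were called at 28.48% and 28.56%, so the members' counts rose with those of all genes. Leaving out any 1 of the arrays compared lowered the counts of members and of all genes alike. The TFoxp3+ and TFoxp3− arrays in this comparison differed in the actin end difference given above, and the interquartile range of all genes was 3.03 to 3.13 on the TFoxp3+ and 3.35 to 3.54 on the TFoxp3− arrays. After cyclic loess, which levels such a difference in width, the median over the 50 genes was −0.56 and −0.39.

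**Figure D4:**
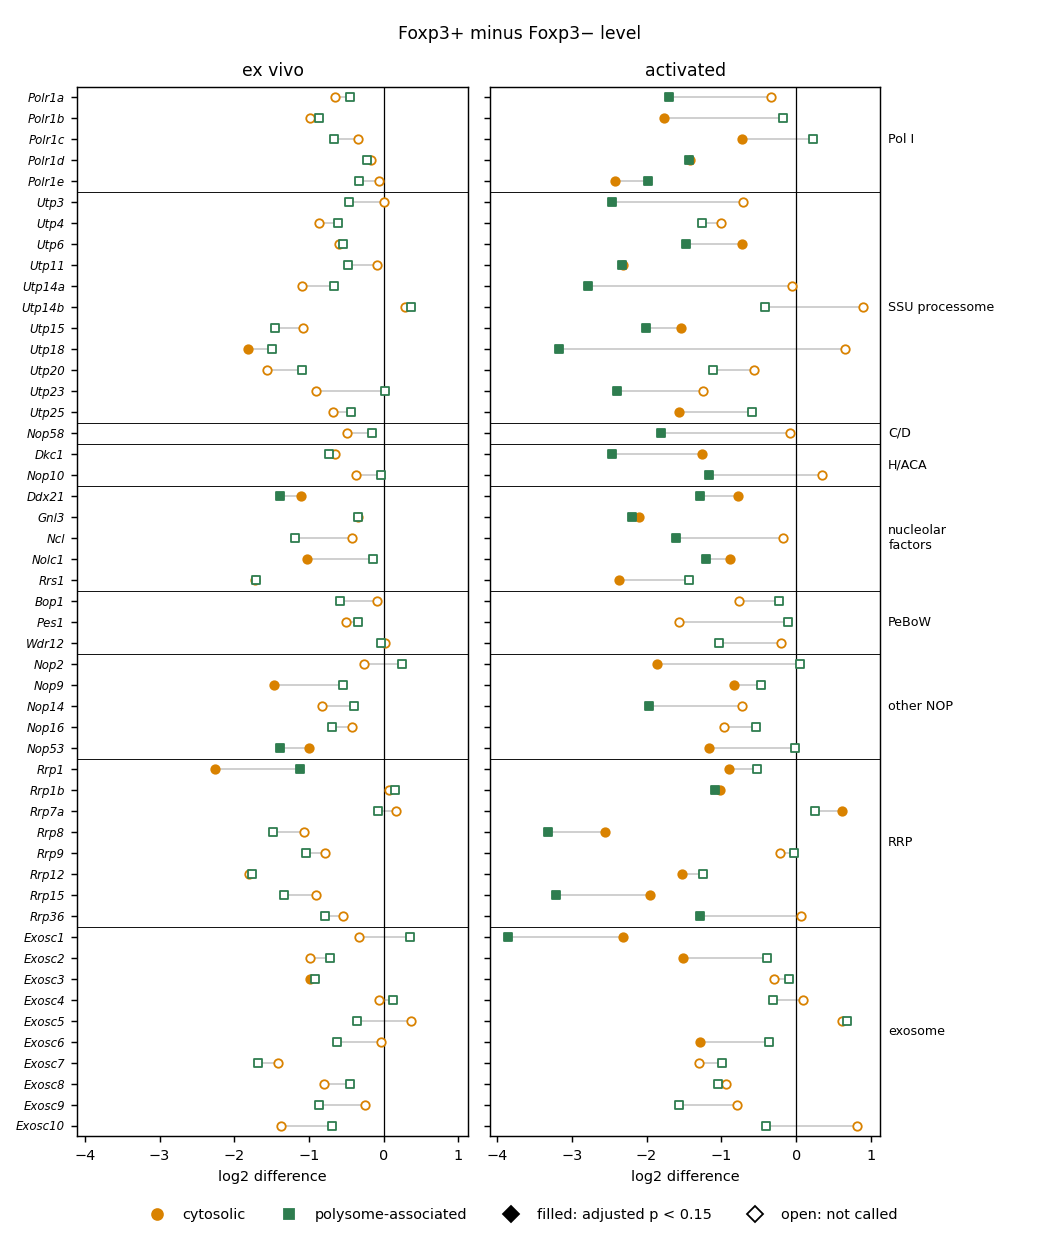
TFoxp3+ minus TFoxp3− log2 difference of the 50 genes ex vivo (left) and after activation (right), with circles for cytosolic and squares for polysome-associated mRNA and filled symbols for an adjusted p under 0.15. Most points lie left of 0 in both panels, and filled points are more numerous after activation, with Exosc1, Rrp8, Rrp15 and Utp18 at the far left in polysomes.

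In activated cells, too, the genes called were lower in TFoxp3+ cells with 1 exception. In cytosolic mRNA 24 genes were lower and 1 higher in TFoxp3+ cells (all genes 12.2% and 13.8%, 26.0% in all), and in polysome-associated mRNA 23 were lower and 0 higher (13.7% and 18.7%, 32.4% in all). Of the genes above the median mean level, 21.8% were lower and 11.8% higher in cytosolic mRNA, and 21.6% and 16.9% in polysomes. The median differences were −0.89 and −1.19 (all genes 0.13 and 0.20, genes above the median mean level −0.19 and −0.04), and 13 genes were lower in both fractions, which come from the same cells (all genes 5.52%). With cyclic loess the medians were −0.46 and −1.09, and in cytosolic mRNA 14 genes were lower and 3 higher, when 18.28% of all genes were called. Nucleolar factors were called lower for 4 of 5 genes in each fraction. Gnl3 was at 9.15 and 8.59 in TFoxp3− and 6.31 and 7.23 in TFoxp3+ cytosolic mRNA, and at 8.76 and 9.03 against 6.62 and 6.78 in polysomes, differences of −2.10 and −2.20 (standard error 0.34, adjusted p = 0.00437 and 0.00265 from limma). The groups were well apart in both fractions. Rrs1 was lower in cytosolic mRNA (−2.37, adjusted p = 0.066) and Ncl in polysomes (−1.61, adjusted p = 0.0127), while Nolc1 and Ddx21 were lower in both. In cytosolic mRNA the call of Ddx21 (−0.78, adjusted p = 0.127 from limma) was lost in 6 of 10 alternatives and that of Rrs1 in 5.

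RNA polymerase I genes were lower in TFoxp3+ cells for 4 of 5 in cytosolic and 3 of 5 in polysome-associated mRNA. Polr1e differed most, by −2.43 and −1.98 (standard error 0.34, adjusted p = 0.00203 and 0.00463 from limma), followed in cytosolic mRNA by Polr1b (−1.77), Polr1d (−1.42) and Polr1c (−0.73), and in polysomes by Polr1a (−1.7) and Polr1d (−1.43). Polr1b, by contrast, differed by −0.17 in polysomes. Of 11 processome genes 4 were lower in cytosolic mRNA and 7 in polysomes, where the list's median was −2.01. Utp11 was lower by 2.32 and 2.33, and Utp18 in polysomes alone, at 8.04 and 8.48 in TFoxp3− and 5.55 and 4.64 in TFoxp3+ cells (−3.17, standard error 0.51, adjusted p = 0.00312). Utp3 was lower by 2.46 in polysomes. Both H/ACA genes were lower in polysomes, Dkc1 by 2.47 and Nop10 by 1.17, as was Nop58, by 1.81 (adjusted p = 0.0179), whose cytosolic difference was −0.08.

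The RRP genes held the one member that was higher in activated TFoxp3+ cells, Rrp7a (0.62 in cytosolic mRNA, adjusted p = 0.101 from limma), a call lost in 7 of 10 alternatives. Rrp8 was at 9.49 and 9.99 in TFoxp3− and 6.79 and 7.57 in TFoxp3+ cytosolic mRNA and at 9.85 and 10.47 against 7.65 and 6.03 in polysomes, differences of −2.56 and −3.32 (standard error 0.46, adjusted p = 0.0062 and 0.0013). Rrp15, of the large subunit, was lower by 1.96 and 3.21. Among the NOP genes Nop2, a methyltransferase of ribosomal RNA, was lower in cytosolic mRNA by 1.86 (adjusted p = 0.0125) and differed by 0.05 in polysomes, and Nop14 was lower in polysomes by 1.97. Of the exosome, Exosc1, Exosc2 and Exosc6 were lower in cytosolic mRNA, by 2.31, 1.52 and 1.28, and Exosc1 alone in polysomes, by 3.86 (standard error 0.87, adjusted p = 0.0148). Its replicates lay far apart, at 5.43 and 8.76 in cytosolic and 4.96 and 6.82 in polysome-associated mRNA of TFoxp3+ cells. Exosc3, Exosc4, Exosc5 and Exosc10 were within 1 log2 unit between the subsets in both fractions and were not called.

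In activated cells the 5 T cell activation markers also differed in part between the subsets. Mki67, a proliferation marker, had means of 8.39 and 8.50 in TFoxp3− (cytosolic first) and 6.27 and 6.41 in TFoxp3+ cells. Means of Myc were 11.81 and 12.37 against 10.28 and 11.32, and those of Cd69 8.58 and 8.44 against 6.62 and 4.20. For Cd69 the TFoxp3+ arrays had SDs of 5.84 and 1.78, so its cytosolic means do not separate the subsets. Il2ra and Tnfrsf4 had higher means in TFoxp3+ cells, with 8.07 and 9.65 against 11.07 and 10.22 and with 11.42 and 11.42 against 12.05 and 12.35. The summed level of the list was 47.6 to 50.63 in TFoxp3− and 41.75 to 50.85 in TFoxp3+ arrays. Their part in the result was not tested. With only the 8 activated arrays in the fit, 7 genes in cytosolic and 16 in polysome-associated mRNA were called, all lower in TFoxp3+ cells, when all genes were called at 4.874% and 8.31%. Without array 9, a cytosolic array of activated TFoxp3− cells, fewer members and fewer of all genes were called in cytosolic mRNA.

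Polysome-associated and cytosolic levels of the same cells show the share of an mRNA that sits on at least 3 ribosomes, set against the other genes on the array, and a shift common to all mRNAs is not visible. Ex vivo, limma called 0 of 50 genes in either subset (all genes 0.0303% higher and 0.0303% lower, 0.0607% in all, in TFoxp3− cells, and 0.0303%, 0.00607% and 0.0364% in TFoxp3+ cells), with 2 and 4 at an unadjusted p under 0.05, and the differences spanned −1.11 to 1.33. In activated TFoxp3− cells 3 genes were higher in polysomes and 0 lower (all genes 2.36% and 1.52%, 3.88% in all). These were Ncl (2.04, standard error 0.35, adjusted p = 0.0118), Utp6 (1.65, standard error 0.28, adjusted p = 0.0111) and Nolc1 (0.97, standard error 0.23, adjusted p = 0.0412). Of the 50 genes 22 had both polysome arrays above both cytosolic arrays there, against 17.18% of all genes, and the median difference was 0.40 (all genes −0.11). In activated TFoxp3+ cells 1 gene was higher and 3 were lower (2.31% and 2.36%, 4.66% in all). Polr1b was at 8.14 and 7.76 in polysomes and 5.98 and 5.37 in the cytosol (2.28, standard error 0.32, adjusted p = 0.00427), and Rrp36 at 5.74 and 6.58 against 8.47 and 8.66 (−2.41, standard error 0.32, adjusted p = 0.00351). Nop10 (−1.35) and Utp18 (−2.03, adjusted p = 0.0475) were the other genes lower in polysomes. None of these calls in activated cells was made in fits of only the groups compared, where 0.0% of all genes were called. Of 10 alternatives each, the call was lost in 5 for Ncl, 2 for Utp6 and 8 for Nolc1. It was lost in 3 for Polr1b, Rrp36 and Nop10 and in 6 for Utp18.

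How this polysome-associated minus cytosolic difference changed with activation was tested within each subset. In TFoxp3− cells 0 of 50 genes passed 0.05 (all genes 0.091% higher and 0.0668% lower, 0.158% in all), with 10 at an unadjusted p under 0.05 in limma, and the 3 with the smallest unadjusted p were Nolc1 (1.39, adjusted p = 0.135), Ncl (1.84, adjusted p = 0.183) and Utp6 (1.44, adjusted p = 0.186). In TFoxp3+ cells 1 gene passed (all genes 0.17% higher and 0.109% lower, 0.279% in all), Rrp36, whose difference went from 0.25 ex vivo to −2.41 after activation, a change of −2.66 (standard error 0.45, adjusted p = 0.0434). This call was lost without any 1 of the 4 ex vivo TFoxp3+ arrays (adjusted p = 0.142 to 0.194).

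**Figure D5:**
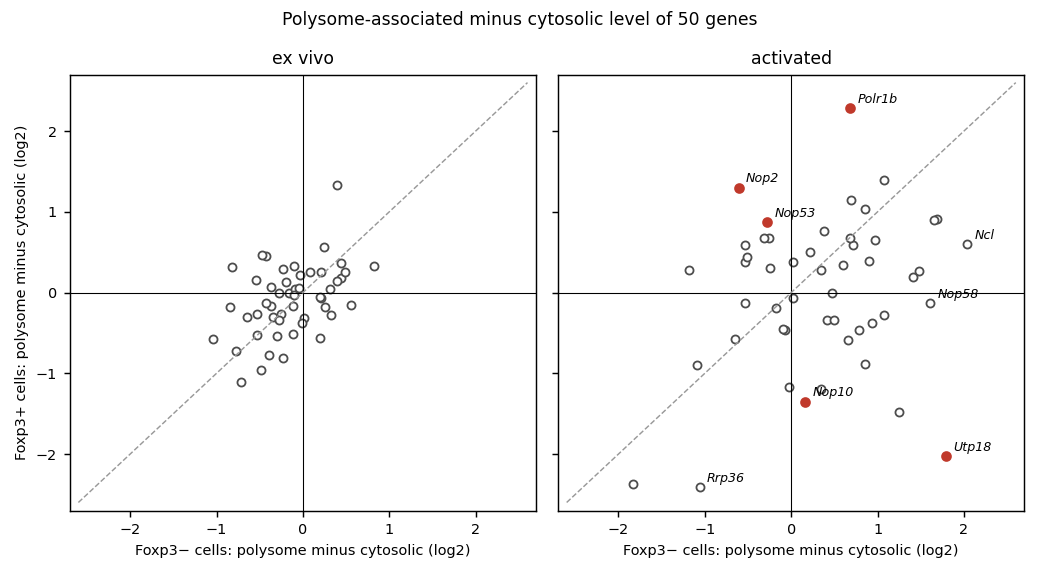
Polysome-associated minus cytosolic log2 difference of the 50 genes in TFoxp3− (horizontal axis) and TFoxp3+ cells (vertical axis), ex vivo (left) and activated (right), with a dashed line where both are equal and filled red points where the difference between the subsets had an adjusted p under 0.15. Ex vivo points cluster near 0, and after activation Polr1b, Nop2 and Nop53 lie above and Utp18 and Nop10 below the line.

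Differential translation, the polysome-associated minus cytosolic difference in TFoxp3+ cells minus that in TFoxp3− cells, called 0 of 50 genes ex vivo at a threshold of 0.3 (all genes 0.0%), with 2 at an unadjusted p under 0.05 in limma. The 3 with the smallest unadjusted p were Rrp1 (1.14), Nolc1 (0.88) and Nop9 (0.94), each with an adjusted p of 1. In activated cells 3 genes were higher and 2 lower in TFoxp3+ cells at 0.15 (all genes 3.83% and 3.65%, 7.48% in all). The count depended on the fit: 0 were called with only the groups compared (all genes 0.0%) or with array weights (0.7648%), and 1 higher and 5 lower with cyclic loess (7.344%). By analysis of covariance over the 16 pairings of arrays 1 was higher and 17 to 23 lower, where all genes were called at 9.16% to 10.4% higher and 8.98% to 9.72% lower. Utp18 was lower by 3.82 (standard error 0.72, adjusted p = 0.0259 from limma): in TFoxp3− cells it was at 7.19 and 5.76 in the cytosol and 8.04 and 8.48 in polysomes, and in TFoxp3+ cells at 6.66 and 7.60 in the cytosol and 5.55 and 4.64 in polysomes. The fractions thus ran in opposite directions. The Utp18 level of 4.64, on polysome array 16 of activated TFoxp3+ cells, lay below that array's median of 4.94, so the size of its difference is uncertain. Nop10 was lower by 1.51 (standard error 0.31, adjusted p = 0.035), at 11.28 and 11.36 against 11.56 and 11.40 in TFoxp3− cells and 11.95 and 11.37 against 10.46 and 10.17 in TFoxp3+ cells, cytosol first. Nop2 (1.91, standard error 0.54, adjusted p = 0.0991), Polr1b (1.60, standard error 0.45, adjusted p = 0.0948) and Nop53 (1.15, standard error 0.37, adjusted p = 0.139) were higher, and all 3 had a lower cytosolic level in activated TFoxp3+ than TFoxp3− cells with differences of −1.86, −1.77 and −1.16. This measure and the comparison of the subsets use the same arrays.

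The other genes of the pathway, 101 measured outside the members, were counted in the same way. They comprised 11 further RNA polymerase I subunits and initiation factors, 32 further small-subunit and 39 large-subunit factors, 12 snoRNP and nucleolar factors and 7 catalytic subunits and cofactors of the exosome. With activation 30 rose and 4 fell in cytosolic and 46 and 4 in polysome-associated mRNA of TFoxp3− cells, and 18 rose and 9 fell in cytosolic and 28 and 9 in polysome-associated mRNA of TFoxp3+ cells, with medians of 0.80, 0.93, 0.16 and 0.32. As shares of the 101 these are 29.7% and 3.96%, 45.54% and 3.96%, 17.82% and 8.911%, and 27.72% and 8.911%, to be read against the shares of all genes given for the members (13.6% and 12.5%, 14.1% and 16.4%, 16.9% and 14.4%, 14.7% and 14.6%). The following examples are those with the smallest p in polysomes of TFoxp3− cells. Taf1b, of the factor SL1 that recruits RNA polymerase I, rose by 3.87, Rpf1 and Nol9, which act on the large subunit and its RNA, by 4.61 and 4.24, and Ruvbl2, an ATPase of snoRNP assembly, by 2.97. Between the subsets ex vivo 8 and 5 of the 101 were called, all lower in TFoxp3+ cells (7.921% and 4.95%, all genes 2.58% and 2.25%, genes above the median mean level 4.37% and 3.53%). After activation 48 were lower and 1 higher in cytosolic mRNA and 47 lower and 2 higher in polysomes (47.52% and 46.53% lower, all genes 12.2% and 13.7%, genes above the median mean level 21.8% and 21.6%), with medians of −0.93 and −0.91. Bysl (−2.84) in cytosolic and Mphosph10 (−3.21) and Wdr43 (−2.68) in polysome-associated mRNA, all of the small subunit, had the smallest p-values. For differential translation 5 were higher and 9 lower in activated TFoxp3+ cells (4.95% and 8.911%, all genes 3.83% and 3.65%), and 0 were called ex vivo, where 2 had an unadjusted p under 0.05 in limma.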

How the data were processed

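Per the labels and the methods, RNA of 16 samples was amplified with the Ovation Pico WTA system and hybridised to Affymetrix arrays, and the authors ran RMA (R, package affy) with probe sets remapped to Entrez genes. The deposited log2 intensities were used as given, and the sources used here do not say if 1 RMA run held all arrays. The authors' probe sets numbered 16539, of which 64 controls were left out. Of the 16475 genes, 695 have no symbol in the platform annotation and are not named. Without detection values no floor could be set. Precision is limited by how few arrays there are.

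Groups followed the labels. limma 3.58.1 in R 4.3.3 was fitted with 1 mean per group over all 16 arrays (8 residual degrees of freedom, median residual SD 0.349), two-sided, with Benjamini-Hochberg adjustment over all genes in each of 18 comparisons. The fit was tested on simulated data. Thresholds were 0.15 for comparisons of the subsets and differential translation in activated cells, 0.3 for differential translation ex vivo, and 0.05 otherwise. The methods state 0.15 for activated cells and 0.3 for differential translation ex vivo. They state no rate for expression of the subsets ex vivo, where 0.15 was used here as well. Since no label ties a cytosolic array to a polysome array, a difference of differences took the place of the study's anota, and an analysis of covariance over all 16 pairings was an alternative. Others were a fit of only the groups compared, array weights, genes above the median mean, arrays centred on their medians, cyclic loess, leaving out each array, and, added after the data were seen, a fit of the 8 arrays of a state. SDs and standard errors are between arrays. Counts at an unadjusted p under 0.05 are given without the share of all genes, and so are not results about the members.

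Members and lists were chosen with earlier results of these data known. Named genes were the 10 listed by name, the called member of each role with the smallest adjusted p in each direction, calls against the majority and all calls in the differences of differences; other members named were chosen after their values were seen. Python 3.11.15 with pandas 2.3.3 made the tables, and matplotlib 3.10.9 the figures.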

Additional observations from a re-analysis of the deposited data

Results flagged for a closer look

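In activated cells 5 genes differed between the subsets by a test of the difference itself, the polysome-associated minus cytosolic log2 difference in TFoxp3+ minus that in TFoxp3− cells: Utp18 (−3.82), Nop10 (−1.51), Nop2 (1.91), Polr1b (1.60) and Nop53 (1.15). Of 13 alternatives each, the call was lost in 2 for Utp18 and Nop10, in 4 for Nop2, in 6 for Polr1b and in 10 for Nop53. Without array 9 or array 10, of activated TFoxp3− cells, the adjusted p from limma was 0.195 and 0.208 for Nop2 and 0.199 and 0.185 for Polr1b, and without array 15, of activated TFoxp3+ cells, 0.158 for Polr1b. For Nop53 leaving out any array of activated cells other than arrays 11 and 16 ended the call (adjusted p = 0.157 to 0.259).

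Rrp36 stood out in that its polysome-associated minus cytosolic difference changed by −2.66 with activation in TFoxp3+ cells. Polr1e stood out in that its cytosolic activation response differed between the subsets by −2.38. With 2 arrays a group, no test for outlying samples could be made.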

How the results depend on the processing

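Counts of members called with activation stayed within 1.5 times those reported in all alternatives tried, and without 1 array they were 12 to 15, 21 to 26, 15 to 23 and 12 to 16 (TFoxp3− cytosolic and polysome-associated, then TFoxp3+). For TFoxp3+ cells in cytosolic mRNA cyclic loess gave 17 higher and 3 lower in place of 16 and 6. For the subsets ex vivo, 7 and 3 calls (cytosolic first) became 28 and 22 with only the groups compared (all genes 31.47% and 20.86%, against 4.64% and 3.87% as reported), 28 and 29 with the 8 arrays of the state (28.48% and 28.56%), and 31 and 22 with array weights (32.33% and 24.9%), while cyclic loess gave 4 cytosolic and centring 5 polysome-associated calls, and 1 to 2 and 0 to 1 were left without 1 array. In activated cells 25 cytosolic calls became 2 with only the groups compared (all genes 2.974%, against 26.0%), 7 with the 8 arrays (4.874%), 8 with array weights (8.303%) and 14 to 23 without 1 array, and cyclic loess gave 3 higher and 14 lower. The 23 polysome-associated calls became 11 with only the groups compared (5.19%, against 32.4%) and 21 to 25 without 1 array. Between the fractions ex vivo, 0 calls became 1, 1 and 2 in TFoxp3− cells (groups compared, 8 arrays, array weights), and 1 with the 8 arrays or array weights in TFoxp3+ cells. In activated TFoxp3− cells 3 calls became 0, 0 and 1 in that order and 1 (without array 12) to 3 without 1 array, and in activated TFoxp3+ cells 4 became 0, 0 and 0, or 5 to 8 without 1 array. Differential translation in activated cells went from 5 calls to 0 with only the groups compared or array weights, to 1 higher and 5 lower with cyclic loess, to 3 (without array 9) to 11 (without array 16), and to 18 to 24 by the analysis of covariance, of which 1 was higher (all genes 18.1% to 20.1%); ex vivo that analysis called 1 to 7 (0.388% to 3.99%). The change of translation with activation in TFoxp3+ cells went from 1 call to 0 with the groups compared or array weights and 0 to 3 without 1 array. The activation response by subset went from 1 cytosolic call to 0 with the groups compared, 2 with cyclic loess and 0 to 6 without 1 array, and from 0 to 1 in polysomes with array weights and 0 to 4 without 1 array. Of 921 settings of 95 named results, 739 kept the call, 182 lost it and 0 reversed the direction. The analysis of covariance is not among these 921 settings. Leaving out any 1 array also lowered the share of all genes called in the comparisons of the subsets. For differential translation in activated cells it moved that share in both directions. The cause of these moves was not tested.

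Centring the arrays moved the median of all genes from 0.13 to −0.01 between the activated subsets in cytosolic mRNA and from 0.20 to 0.08 in polysomes, and that of the members to −1.04 and −1.31; cyclic loess gave members −0.46 and −1.09. Where 1 array of a group was left out, the fit takes the spread of the remaining array from the other groups. No paired analysis was possible because no label says which arrays belong together, and the groups share no replicate number; for this reason the analysis of covariance was run over each of the 16 possible pairings.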
